A study of Mus musculus with 20 samples.

Results

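The difference between the genotype effect at 10 months and the genotype effect at 7 months was measured in brain microglia of 20 male mice. For each gene the log2 difference between mThy1-α-synuclein mice and their wild-type controls was taken at each age, and the contrast was its value at 10 months minus its value at 7 months, so a positive contrast means that the transgenic mice stood higher, relative to their wild-type littermates, at 10 than at 7 months. A gene was tested when its value was at least 10 in at least 4 mice of 7 months or at least 5 mice of 10 months, which 14030 of 24062 genes met. Of these, 13484 passed the filter at both ages, 403 passed it only at 7 months and 143 only at 10 months.

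There were 6 mThy1-α-synuclein and 4 wild-type mice of 7 months, and 5 of each genotype at 10 months. The transgenic mice, given as mThy1-Asyn and HEM in the labels, carry an X-linked transgene in which the mouse Thy-1 promoter drives full-length human wild-type α-synuclein. Both genotypes are on the B6D2F1/J background, and no further allele or treatment is named in the sources used here. Thy-1 drives the transgene mainly in neurons, so it is neurons that overproduce the protein and the microglia were sampled from the brain around them. Each library came from the whole brain of 1 mouse after magnetic bead selection, with CD11b beads by the methods and IBA1 beads by the labels. Both genotypes of an age were handled side by side up to nucleic acid isolation, which is not stated across the 2 ages, so age and round of processing cannot be told apart. In such bulk RNA, fewer cells of a type and less RNA per cell cannot be told apart either.

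Microglia are the resident macrophages of the brain. They sense protein aggregates and damaged neurons through Toll-like and other pattern recognition receptors, and answer with cytokines, chemokines and increased phagocytosis. A cell that makes many secreted and membrane proteins relies on chaperones of the endoplasmic reticulum (ER), whose genes are switched on by the unfolded protein response, and on the ribosome itself, whose protein genes are regulated together.

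Values are read counts divided by a size factor for each library. Where values of an age are set against each other, those of the transgenic mice come first unless named otherwise, and 6 mice are given by their lowest, highest and median value. Reads on genes ranged from 33404096 to 77806399 per mouse. Homeostatic microglial markers were high in all mice, with the sum of 20 genes between 2317532 and 3043278, and none of the 20 passed in the contrast by limma or by edgeR or DESeq2 on the recovered reads (5 at an unadjusted p below 0.05). Xist was at most 15 and Ddx3y at least 3600 in every mouse, which fits male animals. Summed neuronal markers were 5564 to 8763 in the 4 wild-type mice of 7 months, above the 2891 to 3937 of the transgenic mice of that age, while at 10 months the genotypes overlapped (3035 to 4654 against 2813 to 5848). Neutrophil marker sums ranged from 75387 to 506374 among the transgenic mice of 7 months alone, and at 10 months from 102373 to 241384 in transgenic and 200432 to 463375 in wild-type mice.

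The genotype effect differed between the ages for 926 of 14030 genes (6.6%) at an adjusted p below 0.05 (limma, Benjamini-Hochberg adjustment). The contrast was positive for 543 genes (3.87%) and negative for 383 (2.73%). The 926 genes were sorted by the effect at each age, taken at an unadjusted p below 0.05 in the same fit. Of them, 365 reversed, with a genotype effect at both ages in opposite directions. Another 311 faded, with an effect at 7 months and none past this threshold at 10 months. A further 244 appeared, with an effect only at 10 months. The other 6 had an effect past this threshold at both ages in the same direction, 3 with a larger and 3 with a smaller effect at 10 months. By sign alone the effect changed direction in 870 of the 926 genes, so some fading and appearing genes kept their sign. A gene with opposite effects at 2 ages has a large contrast by construction, so the share of reversing genes is a description of the called genes and not a separate result. Without wild-type replicate 1 of 7 months the fading genes numbered 189, and without wild-type replicate 1 of 10 months the appearing genes numbered 138.

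**Figure D1:**
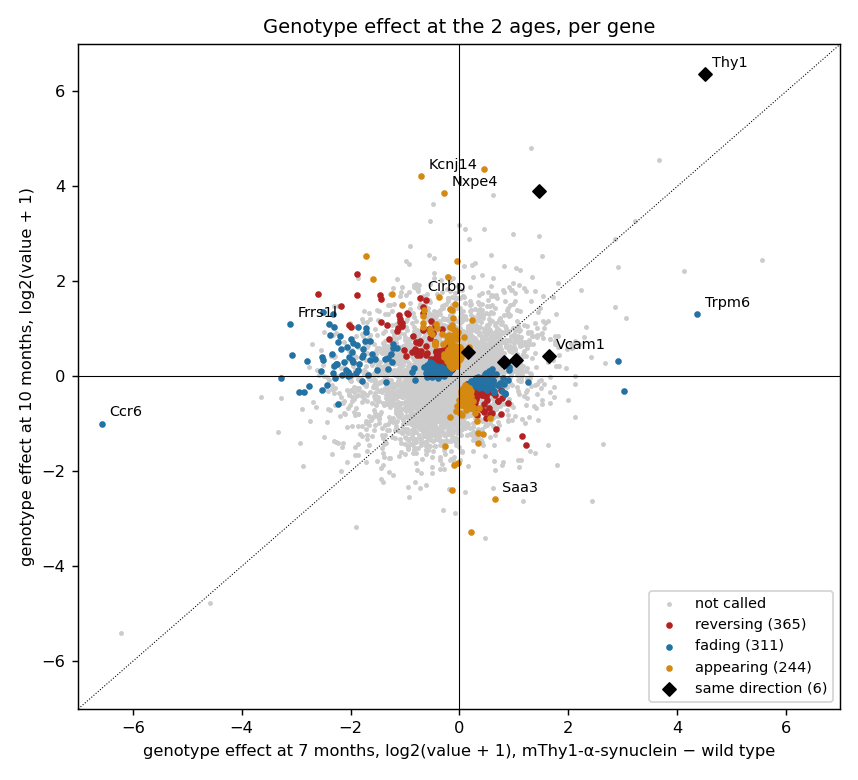
Genotype effect at 7 months (horizontal axis) against that at 10 months (vertical axis), both mThy1-α-synuclein minus wild type on the log2(value + 1) scale, 1 point per tested gene. Colours mark the 365 reversing, 311 fading and 244 appearing genes. Black diamonds mark the 6 genes with an effect at both ages in the same direction, and the dotted line equal effects at both ages. The called genes lie mostly in the upper left and lower right.

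At an adjusted p below 0.05 within an age, 944 genes differed between the genotypes at 7 months and 957 at 10 months in the same fit. The 115 genes that passed at both ages were 12.2% of the first and 12% of the second set. Of these, 76 differed in the same direction and 39 in opposite directions. All 39 also passed in the contrast, against 1 of the 76. Across genes, which are not independent replicates and share their libraries, the effects at the 2 ages had a Pearson r of 0.178 and a Spearman rho of 0.0888.

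The genotypes did not overlap at 7 months for 1049 genes (7.48%) and at 10 months for 999 (7.12%). The strictest form of a reversal is a gene whose genotypes do not overlap at either age and lie in opposite order. This was the case for 44 genes (0.314% of those tested), 27 with a positive and 17 with a negative contrast, and all 44 were among the reversing genes. Zeb1, Cirbp, Pdia6, P4ha1 and Creld2, which had some of the smallest contrast p-values, were of this kind. Each was called in all 20 fits that left out 1 mouse.

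Cirbp encodes a cold-inducible RNA-binding protein (GRCm38, chr10:80165985-80172786). At 7 months the transgenic mice ranged from 1251 to 1768 with a median of 1600, and the wild-type mice had 2719, 2226, 3183 and 2053. At 10 months the transgenic mice had 1847, 1792, 1674, 2714 and 2703, and the wild-type mice had 563, 682, 808, 602 and 728. Every transgenic mouse lay below every wild-type mouse at 7 months and above every one at 10 months. The genotype effect went from -0.72 ± 0.15 (SE) to 1.64 ± 0.15 on the log2(value + 1) scale, a contrast of 2.36 ± 0.22 (adjusted p = 2.2e-06). Rbm3, its cold-inducible relative on the X chromosome, was named after its values were seen. It had 5900 to 10975 in transgenic and 9550 to 12196 in wild-type mice of 7 months, which overlapped. Its values at 10 months were 5474 to 11471 in transgenic and 2224 to 3188 in wild-type mice, with no overlap. Its contrast was 2.22 ± 0.26 (adjusted p = 0.000193).

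Zeb1, a zinc finger repressor known from epithelial to mesenchymal transition, had 3007 to 4243 (median 3725) in transgenic mice of 7 months against 6934, 6549, 6896 and 7002 in wild-type mice. The 10-month values were 5100, 4864, 4348, 4526 and 4093 in transgenic mice against 2825, 3415, 3733, 2942 and 3274. All transgenic mice thus lay below all wild-type mice at 7 months and above them at 10 months. The contrast was 1.38 ± 0.13 (adjusted p = 1.65e-06). P4ha1, a subunit of the ER enzyme that hydroxylates prolines of collagen, went the other way. Its transgenic mice had 17592 to 21752 (median 19093) at 7 months against 13514, 13612, 15034 and 14255 in wild-type mice. Those of 10 months had 14561, 19218, 16773, 12872 and 12682 against 26303, 25905, 22147, 28287 and 23982 (contrast -1.21 ± 0.14, adjusted p = 1.86e-05).

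**Figure D2:**
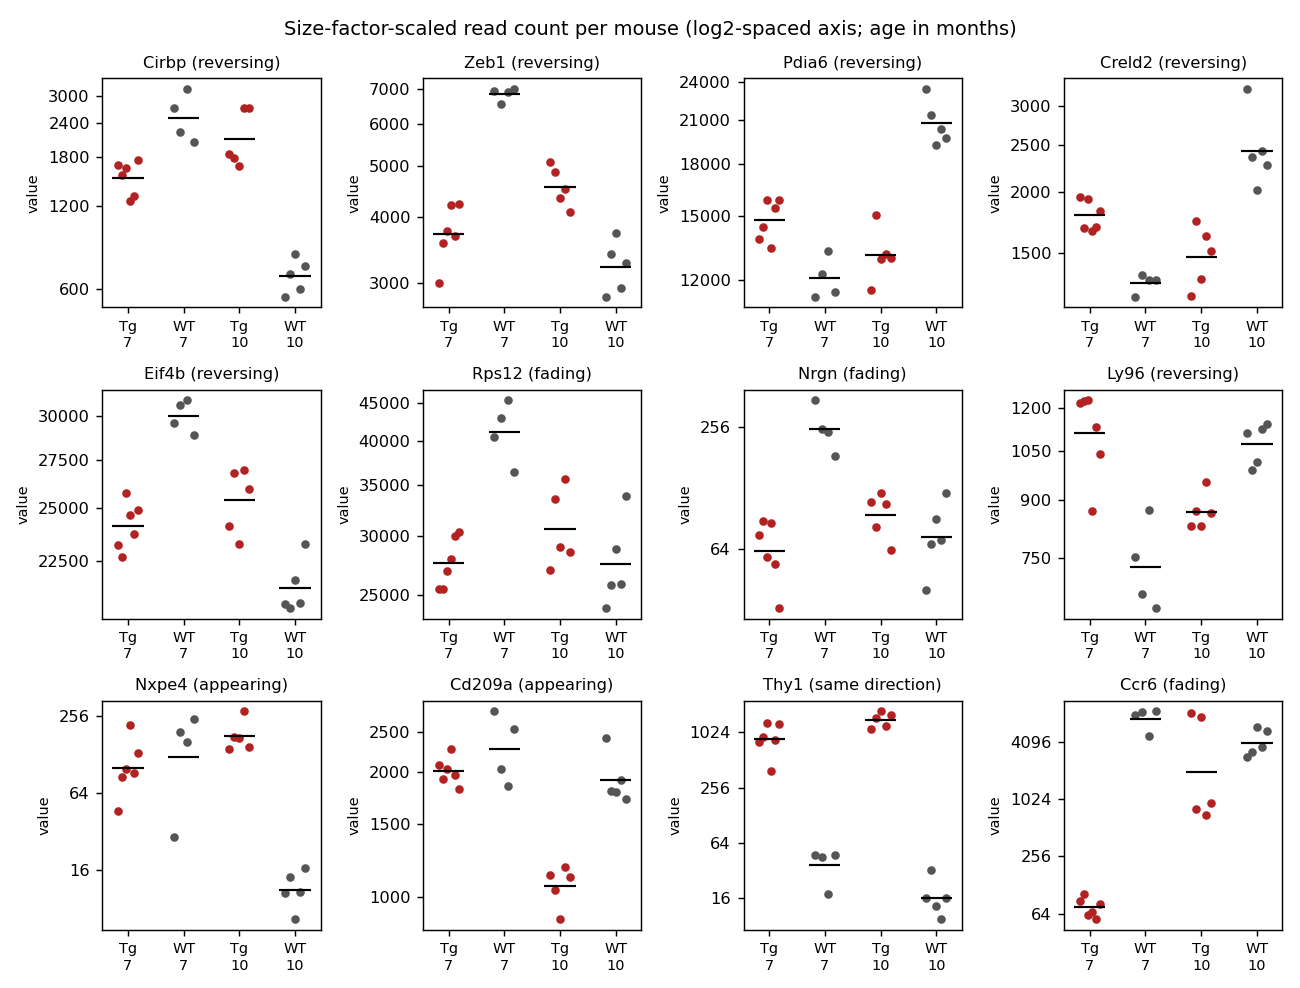
Value of 12 genes in each of the 20 mice (vertical axes, size-factor-scaled read counts on a log2-spaced axis that does not start at 0), by genotype (red, mThy1-α-synuclein, Tg; grey, wild type, WT) and age in months. Points are mice and bars are means taken on the log2(value + 1) scale; the genotypes change order between the ages for Cirbp, Zeb1, Pdia6, Creld2, Eif4b and Ly96.

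By size, the 6 reversing genes of largest contrast with a mean value of at least 50 in a group were Dnm1, Ndrg4, Acsl6, Tbx19, Cirbp and Nrxn2. Ndrg4, a gene of neurons and heart, had 12.2 to 53.5 (median 34.8) in transgenic and 125, 60.3, 103 and 63.9 in wild-type mice of 7 months, with no overlap. In the older mice it had 101, 61.4, 55.6, 58.5 and 41.1 against 39.2, 8.44, 52.8, 17.5 and 44.9, with overlap (contrast 2.58 ± 0.63, adjusted p = 0.0161). The synaptic adhesion gene Nrxn2 had a contrast of 2.30 ± 0.52 (adjusted p = 0.00997). Dnm1, the neuronal dynamin, had a contrast of 3.07 ± 0.92 (adjusted p = 0.046) that was lost in 17 of the 20 fits without 1 mouse (highest adjusted p = 0.0973, without wild-type replicate 1 of 7 months). Acsl6 and Tbx19 (contrasts 2.42 and 2.40) were each lost in 13 of the 20. Like the neuronal marker sums given above, the neuronal genes Dnm1, Ndrg4 and Nrxn2 had lower means in transgenic mice at 7 months. At 10 months their effects were 1.63, 1.14 and 1.21, while the genotypes overlapped in the sums. The part of neurons in these values was not tested.

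ER chaperones, which fold and quality-check secreted and membrane proteins, changed direction as a group. Of 18 chaperone and folding genes in the list, 14 passed in the contrast, all with a negative sign (background 2.73% of tested genes). Of the 14, 10 reversed, 1 faded and 3 appeared. The median genotype effect of the 18 genes was 0.28 at 7 months and -0.42 at 10 months, against 0.00054 and -0.00035 for all tested genes. Among the 13 regulators and downstream genes of the unfolded protein response, only the transcription factor gene Xbp1 passed (contrast -0.61 ± 0.14, adjusted p = 0.0108). The stress sensors Atf6, Ern1 and Eif2ak3 had adjusted p-values of 0.737, 0.713 and 0.494. Of the 31 genes, 15 were called with all mice and 13 without wild-type replicate 1 of 10 months, the mouse with the highest values of Hspa5, Hyou1 and Creld2. The count was likewise 13 without transgenic replicate 1 or 2 or wild-type replicate 1 of 7 months, or transgenic replicate 2 of 10 months. With the replicate number as a block it was 11.

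The ER stress response element is the sequence by which the unfolded protein response factors ATF6 and XBP1 are known to act on chaperone promoters. It was searched as CCAAT followed by 9 bases of any kind and CCACG, on both strands, in the 250 bases before the start site of each gene in the RefSeq promoter table (GRCm38.p6). They stood in 35 of 27025 genes (0.13%) and in 8 of the 28 listed genes that matched the table (28.6%), namely Hspa5, Hsp90b1, Calr, Canx, Pdia6, Dnajc3, Creld2 and Syvn1. Of the 10499 tested genes that matched, 704 were called. The element stood in 18 of the 10499, and 6 of those 18 were called, all with a negative contrast: Hspa5, Hsp90b1, Calr, Pdia6, Creld2 and Syvn1. The listed holders Canx and Dnajc3 were not called, and no holder outside the list was. The 6 are therefore part of the list result above and not a separate one. A match is a description of the window and not a shown binding site. The promoters of 4 of these genes are shown because they carry the element and their genes passed in the contrast, with the match, on either strand, in capitals.
Hspa5, chr2:34771840-34772089, plus strand: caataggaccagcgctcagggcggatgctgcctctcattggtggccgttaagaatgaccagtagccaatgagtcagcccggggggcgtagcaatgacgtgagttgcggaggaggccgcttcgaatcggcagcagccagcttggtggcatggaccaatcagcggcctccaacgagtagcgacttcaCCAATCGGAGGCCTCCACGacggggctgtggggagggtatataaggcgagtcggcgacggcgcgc
Pdia6, chr12:17266339-17266588, plus strand: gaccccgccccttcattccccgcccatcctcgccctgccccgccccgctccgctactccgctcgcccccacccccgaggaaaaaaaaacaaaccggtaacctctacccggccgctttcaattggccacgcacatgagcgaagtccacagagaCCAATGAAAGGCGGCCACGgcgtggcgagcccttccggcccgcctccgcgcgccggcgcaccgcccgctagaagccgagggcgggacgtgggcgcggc
Creld2, chr15:88819396-88819645, plus strand: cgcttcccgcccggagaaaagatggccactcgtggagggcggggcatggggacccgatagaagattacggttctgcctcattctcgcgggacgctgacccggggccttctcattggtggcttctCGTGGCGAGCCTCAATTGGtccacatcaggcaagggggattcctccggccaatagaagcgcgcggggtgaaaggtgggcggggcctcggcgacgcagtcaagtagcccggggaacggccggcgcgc
Calr, chr8:84846932-84847181, minus strand: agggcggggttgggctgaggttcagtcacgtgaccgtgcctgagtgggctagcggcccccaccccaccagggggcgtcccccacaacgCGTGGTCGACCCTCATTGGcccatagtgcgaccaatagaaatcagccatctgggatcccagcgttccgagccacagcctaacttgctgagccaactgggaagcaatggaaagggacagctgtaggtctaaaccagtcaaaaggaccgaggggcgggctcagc
The call of Syvn1, a ubiquitin ligase of ER-associated degradation, was lost in 8 of the 20 fits without 1 mouse (highest adjusted p = 0.0685, without wild-type replicate 2 of 7 months). Counted along the gene, the match ended 46 bases before the start site in Hspa5, 79 in Pdia6, 107 in Creld2 and 143 in Calr.

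Pdia6, a protein disulfide isomerase, had the smallest contrast p of the group. Its transgenic mice had 13420 to 15895 (median 14935) at 7 months against 11316, 12262, 13296 and 11533 in wild-type mice. The older transgenic mice had 11600, 15078, 12909, 13172 and 12949 against 23419, 21358, 19241, 20388 and 19725. The genotypes did not overlap at either age and their order changed, with an effect of 0.29 ± 0.08 at 7 months and -0.67 ± 0.07 at 10 months (contrast -0.96 ± 0.11, adjusted p = 1.86e-05). Creld2, a secreted ER stress-inducible factor, had 1668 to 1957 (median 1763) against 1219, 1352, 1318 and 1324 at 7 months. Among mice of 10 months it had 1223, 1744, 1328, 1626 and 1513 against 3256, 2357, 2018, 2425 and 2273 (contrast -1.18 ± 0.15, adjusted p = 0.00012). Hspa5, which encodes BiP, the main ER chaperone, had 48269 to 65871 (median 52318) in transgenic mice of 7 months, above the 39736, 41088, 38966 and 42072 of wild-type mice. At the later age it had 37493, 44222, 37271, 47912 and 47637 against 103335, 62611, 54190, 66390 and 66331. The order changed here too, and wild-type replicate 1 stood well above the other 4 (contrast -1.09 ± 0.18, adjusted p = 0.00148, and at most 0.00502 without any 1 mouse). Hsp90b1, the ER chaperone of Toll-like receptors, had a contrast of -0.77 ± 0.11 (adjusted p = 0.000372), and Pdia4 one of -0.81 ± 0.12 (adjusted p = 0.000508). The genes that appeared rather than reversed were Calr, the lectin chaperone calreticulin (contrast -0.61, adjusted p = 0.00199), Sdf2l1 (-0.78, adjusted p = 0.00366) and Manf (-0.70, adjusted p = 0.00733). Canx and P4hb, of the same list, did not pass (adjusted p = 0.461 and 0.237).

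**Figure D3:**
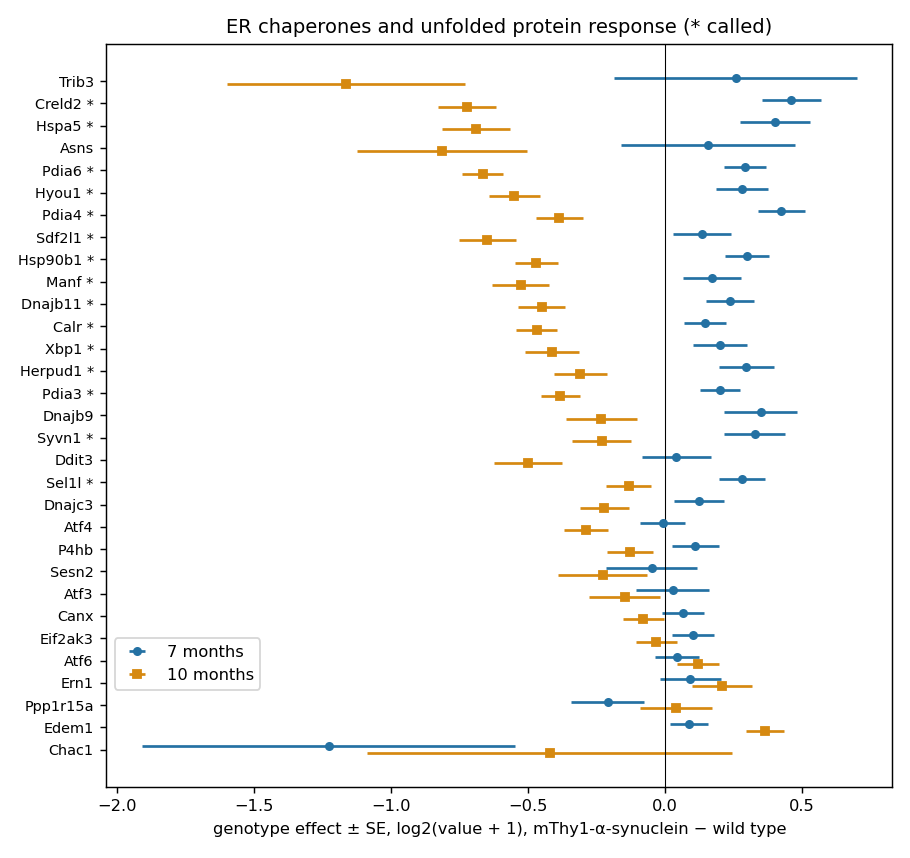
Genotype effect with its standard error (horizontal axis, log2(value + 1), mThy1-α-synuclein minus wild type) at 7 months (blue circles) and 10 months (orange squares) for the 31 genes of the ER chaperone and unfolded protein response list, ordered by contrast. An asterisk marks the 15 genes that passed in the contrast; their 7-month effects lie to the right of 0 and their 10-month effects to the left.

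Cytosolic heat shock chaperones moved in the same direction but mostly as appearing genes. Of 20 cytosolic genes 8 passed, all with a negative contrast, of which 6 appeared and 2 reversed (background 2.73%). Stip1, the adaptor between HSP70 and HSP90, had 4198 to 6496 (median 4677) in transgenic and 3689, 3758, 3689 and 4242 in wild-type mice of 7 months, which overlapped by 1 wild-type mouse. At 10 months it had 3234, 3890, 3297, 3604 and 3334 against 8996, 5468, 5058, 5847 and 5821, with no overlap (contrast -1.14 ± 0.18, adjusted p = 0.00112). The constitutive HSP70 gene Hspa8 had a contrast of -0.76 ± 0.17 (adjusted p = 0.00917), the HSP90 cochaperone Fkbp4 one of -0.81 ± 0.15 (adjusted p = 0.00335), and Ahsa1, the activator of the HSP90 ATPase, one of -0.50 ± 0.11 (adjusted p = 0.00951). The stress-inducible Hspa1a and Hspa1b did not pass (adjusted p = 0.563 and 0.627). The heat shock element was searched in the same promoter windows as TTC, GAA and TTC with 2 bases of any kind between them. It stood in 2 of the 20 heat shock genes that matched (10%), Hspd1 and Hspe1, against 0.476% of matched tested genes. Neither of the 2 was called. For Hsph1, wild-type replicate 1 of 10 months had 8614 against 2829 to 4450 in the other 4, and its call (contrast -1.53 ± 0.40, adjusted p = 0.0308) was lost without any 1 of 6 mice, wild-type replicates 1, 2 and 3 of 7 months, transgenic replicates 2 and 5 and wild-type replicate 4 of 10 months (highest adjusted p = 0.0657). The list had 5 called genes without wild-type replicate 1, 2 or 3 of 7 months, transgenic replicate 5 of 10 months or wild-type replicate 4 of 10 months, and 6 without wild-type replicate 1 of 10 months.

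Ribosomal protein genes made up 57 of the 311 fading genes. Of 78 tested genes for cytoplasmic ribosomal proteins, 58 passed, all with a positive contrast (background 3.87%), and 57 of the 58 faded while Rpl3 reversed. The median effect of the 78 genes was -0.49 at 7 months and 0.07 at 10 months. At 7 months 68 of the 78 were lower in transgenic mice at an adjusted p below 0.05 (background 3.53%), and at 10 months none was by limma (1 at an unadjusted p below 0.05). Of the small subunit 20 of 32 genes were called and of the large subunit 38 of 46. Mitochondrial ribosomal proteins (1 of 77 called) and nuclear oxidative phosphorylation subunits (1 of 74) lay below the background of 6.6%. Yet 65 of the 74 oxidative phosphorylation genes had a positive contrast (6958 of the 14030 tested genes did). At an unadjusted p below 0.05, 35 of the 74 were lower in transgenic mice at 7 months (background 11.9%). At 10 months 3 were (background 10.7%). None of 31 proteasome subunits passed by limma or edgeR, with 1 by DESeq2 and 3 at an unadjusted p below 0.05. Without wild-type replicate 3 of 7 months the count of called cytoplasmic ribosomal protein genes was 34 of 78.

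Rps12, of the small subunit, had the smallest contrast p among them. Its transgenic mice had 25459 to 30343 (median 27448) at 7 months against 40575, 43023, 45401 and 36464 in wild-type mice, with no overlap. At 10 months they had 27048, 33574, 29012, 35617 and 28521 against 24042, 25789, 28809, 25871 and 33879, and the groups overlapped. The effect was -0.58 ± 0.09 at 7 months and 0.15 ± 0.09 at 10 months (contrast 0.73 ± 0.13, adjusted p = 0.00254). Contrasts of the same sign were found for Rpl3 (0.68 ± 0.12, adjusted p = 0.00254), Rpl6 (0.57 ± 0.11, adjusted p = 0.00335) and Rpl17 (0.74 ± 0.14, adjusted p = 0.00391). Ribosomal protein genes have many near-identical pseudogenes, and how the counting split such reads is not given in the sources used here. Eif4b, Eef2 and Eef1a1 were picked after their values were seen and stand for no list. Eif4b, a translation initiation factor, had 22646 to 25730 (median 24186) against 29580, 30682, 30994 and 28925 at 7 months. Its values at 10 months were 24128, 26788, 23278, 26977 and 25941 against 20635, 20461, 21633, 20667 and 23269. The genotypes separated at both ages in opposite order (contrast 0.57 ± 0.08, adjusted p = 0.000508). The elongation factor genes Eef2 and Eef1a1 had contrasts of 0.55 ± 0.09 (adjusted p = 0.0014) and 0.56 ± 0.11 (adjusted p = 0.00562).

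Markers of neurons and astrocytes also faded. Of 21 neuronal markers 8 passed and of 20 astrocyte markers 10 passed, all with a positive contrast (background 3.87%), and 17 of these 18 faded while Ndrg2 reversed. The median effect went from -1.65 to 0.10 for the neuronal and from -1.30 to 0.30 for the astrocyte markers. Nrgn, the postsynaptic protein neurogranin, had 32.7 to 87.8 (median 66.8) in transgenic mice of 7 months against 347, 249, 241 and 183 in wild-type mice. The 10-month values were 109, 82.2, 121, 106 and 63.2 against 40.2, 67.5, 90.5, 71.2 and 121. All 4 wild-type mice stood above the transgenic mice at 7 months, and the genotypes overlapped at 10 months (contrast 2.33 ± 0.42, adjusted p = 0.00254). Sox9, a transcription factor of astrocytes, had 32.5 to 52.8 (median 50.1) against 210, 146, 88.6 and 148 at 7 months, and 92.5, 42.3, 83.5, 84.8 and 48.2 against 40.2, 46.4, 79.2, 47 and 35.3 at 10 months (contrast 2.09 ± 0.41, adjusted p = 0.00437). The gap junction gene Gja1 had a contrast of 2.35 ± 0.47 (adjusted p = 0.00502), the synaptotagmin gene Syt1 one of 2.65 ± 0.52 (adjusted p = 0.00481) and the neurofilament gene Nefm one of 2.25 ± 0.42 (adjusted p = 0.00353). Nefm overlaps Nefl in the annotation, so that reads of the pair can be told apart only by strand, which the sources used here do not give. The values of these markers are low, and the sum over the 8 called neuronal markers was 2794 to 5697 in wild-type and 383 to 1611 in transgenic mice of 7 months. For the 10 called astrocyte markers the sums were 7433 to 10914 and 1509 to 3859. At 10 months the transgenic and wild-type sums overlapped for both lists. Over the whole astrocyte list the sums overlapped at 7 months as well (111278 to 133113 in wild-type and 106776 to 144044 in transgenic mice), since Glul, which microglia also express, made up 87.6% of them. Among oligodendrocyte, lymphocyte and monocyte markers, 0 of 16, 0 of 15 and 0 of 13 passed by limma, against 2, 0 and 1 at an unadjusted p below 0.05. By edgeR 1, 0 and 0 and by DESeq2 1, 0 and 1 passed. Among the larger fading contrasts were likewise low-expressed genes of neurons and glia: Frrs1l (4.21 ± 1.09, adjusted p = 0.0214), Gpr37l1 (3.26 ± 0.96, adjusted p = 0.0417) and Bcan (3.12 ± 0.78, adjusted p = 0.0184). Of these, Gpr37l1 lost its call in 13 of the 20 fits without 1 mouse (highest adjusted p = 0.0958, without wild-type replicate 1 of 7 months). Endothelial and mural marker sums were also lower in transgenic mice at 7 months, with 7834 to 9382 against 9914 to 12312, and overlapped at 10 months, with 8848 to 17220 against 11740 to 17727. At an unadjusted p below 0.05, 9 of 21 endothelial and mural and 7 of 16 oligodendrocyte markers were lower in transgenic mice at 7 months (background 11.9%). The part of carried-over cells in this pattern was not tested.

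**Figure D4:**
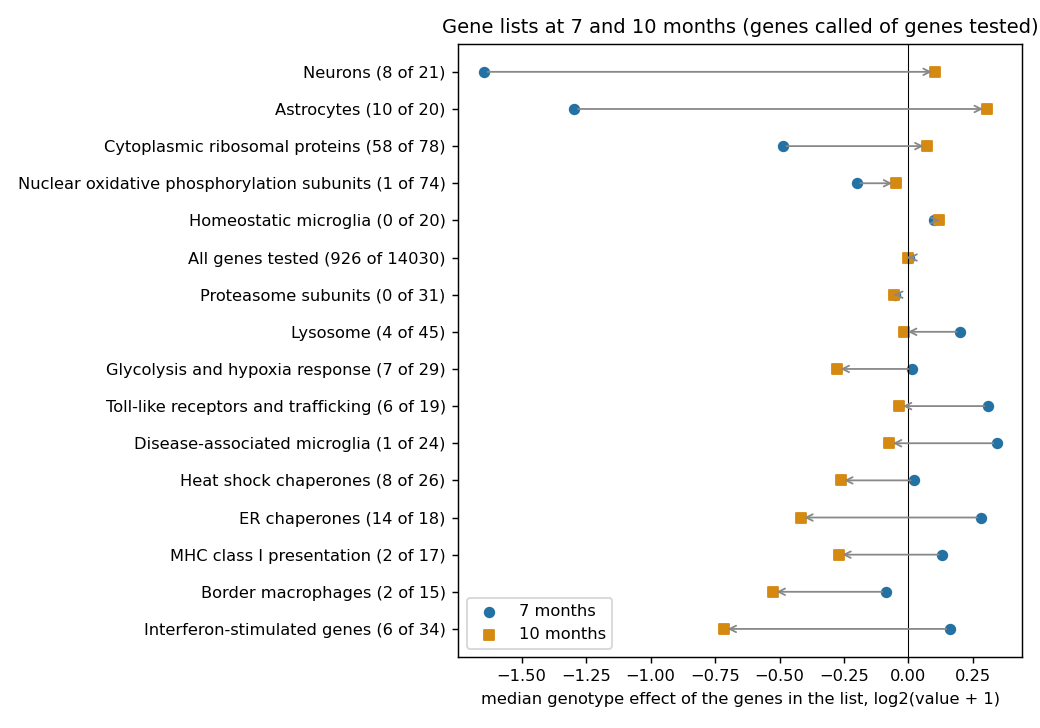
Median genotype effect of the genes in 15 lists and in all genes tested (horizontal axis, log2(value + 1), mThy1-α-synuclein minus wild type) at 7 months (blue circles) and 10 months (orange squares), with an arrow from the first to the second and the number of called of tested genes in brackets. Neuronal, astrocyte and ribosomal protein genes move up from below 0 to just above it, ER chaperones move from above to below 0, and the median of all tested genes stays at 0.

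Toll-like receptors let microglia sense microbial products and aggregated proteins. Of 19 Toll-like receptor genes and cofactors, 6 passed, all with a negative contrast (background 2.73%), 3 reversing and 3 fading. Among the 6 was Hsp90b1, which is also counted above with the ER chaperones. Of the receptors themselves, 3 of 5 at the surface and 1 of 7 in endosomes passed. The median effect was 0.31 at 7 months and -0.04 at 10 months. At 7 months 10 of the 19 were higher in transgenic mice at an adjusted p below 0.05 (background 3.2%). At 10 months 1 was higher (background 3.83%) and 2 were lower (background 2.99%). Ly96, which encodes MD-2, the lipopolysaccharide-binding partner of TLR4, had 868 to 1231 (median 1175) against 752, 670, 872 and 640 at 7 months. In the older mice it had 829, 867, 827, 952 and 862 against 1109, 986, 1011, 1125 and 1142. The groups overlapped by 1 pair of mice at 7 months and separated in the other order at 10 months (contrast -0.92 ± 0.14, adjusted p = 0.000758). Tlr6, a partner of TLR2 for lipoproteins, reversed (contrast -0.80 ± 0.17, adjusted p = 0.00799), and Tlr2 faded (-0.64 ± 0.15, adjusted p = 0.0157). Tlr7, the endosomal sensor of single-stranded RNA, had 21968 to 26723 (median 23074) against 15774, 15233, 13440 and 17739 at 7 months. Among mice of 10 months it had 17736, 18180, 17224, 21501 and 24516 against 23822, 18635, 16372, 21471 and 17569, which overlapped (contrast -0.59 ± 0.15, adjusted p = 0.0191). Tlr4 also faded (-0.56 ± 0.17, adjusted p = 0.0447), but its call was lost in 13 of the 20 fits without 1 mouse (highest adjusted p = 0.1, without wild-type replicate 3 of 7 months). Tlr9 did not pass (adjusted p = 0.0802), and Tlr1 had effects of 0.75 and 0.55 at the 2 ages (contrast -0.20 ± 0.18, adjusted p = 0.56).

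Of 36 adaptors, kinases and inhibitors of NF-κB signalling 1 passed (2.78%, background 6.6%), Irak1, a kinase of the Toll-like receptor and interleukin 1 pathways (contrast 0.31 ± 0.08, adjusted p = 0.0273), and its call was lost without wild-type replicate 3 of 7 months, wild-type replicate 2 of 10 months or transgenic replicate 5 of 10 months (highest adjusted p = 0.061). Of 16 inflammasome and pyroptosis genes 2 passed (12.5%, background 6.6%), with opposite signs. Casp1, the inflammasome protease, reversed (-0.39 ± 0.09, adjusted p = 0.0156). Nek7 appeared with a positive contrast (0.37, adjusted p = 0.0234), a call lost without wild-type replicate 1 of 7 months (adjusted p = 0.0532). Of 17 genes of interleukin 1, tumour necrosis factor and prostaglandin mediators 2 passed (11.8%), both with a negative contrast (background 2.73%). One of them, the tumour necrosis factor receptor gene Tnfrsf1a, appeared (-0.40 ± 0.10, adjusted p = 0.0184). Among 21 genes of Fc and scavenger receptors and Syk signalling 3 passed (14.3%), all with a negative contrast (background 2.73%). Of these, Lyn, a kinase of the Src family, faded (-0.41 ± 0.08, adjusted p = 0.00528), and the Fc receptor gene Fcgr1 reversed (-0.54 ± 0.13, adjusted p = 0.0132). Dusp6, which dephosphorylates ERK and is induced by it, reversed with 13127 to 17222 (median 16882) against 6610, 10038, 11148 and 9461 at 7 months. At the later age it had 11822, 12992, 11838, 15404 and 16283 against 20463, 17695, 16914, 20228 and 17877, with no overlap at either age (contrast -1.24 ± 0.18, adjusted p = 0.000372).

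Among chemokine receptors 5 of 19 passed (26.3%, background 6.6%). The list also holds the complement receptor gene C3ar1, which is among the 5 and is counted with the complement genes too. Ccr6, the receptor of CCL20, had the largest contrast of the fading genes (5.57 ± 0.87, adjusted p = 0.00212). Its transgenic mice had 55.8 to 104 (median 74.2) at 7 months against 7805, 8289, 4699 and 8551 in wild-type mice. The older transgenic mice had 8144, 795, 7416, 695 and 927 against 2805, 3159, 5795, 3579 and 5317. The transgenic mice of 10 months thus fell into 2 with more and 3 with less than every wild-type mouse, so the mean effect at that age does not describe any 1 mouse. Ccr1, a receptor of inflammatory CC chemokines, reversed (-1.45 ± 0.32, adjusted p = 0.0134). The count of 5 was 3 without any 1 of 7 mice, transgenic replicate 1 and wild-type replicates 1 and 4 of 7 months, and transgenic replicates 1, 3 and 4 and wild-type replicate 1 of 10 months. Of 21 chemokine ligands 2 passed (9.52%), close to that background. The monocyte attractant Ccl7 appeared, with 86 to 149 (median 120) against 92.6, 90.5, 77.9 and 102 at 7 months. At 10 months it had 41.8, 76.6, 82.4, 40.9 and 116 against 162, 169, 131, 161 and 288, with no overlap (contrast -1.74 ± 0.37, adjusted p = 0.00733). The interferon-induced Cxcl10 faded (-1.38 ± 0.35, adjusted p = 0.021).

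Interferon-stimulated genes, which mark the response to type I and II interferon, had mostly negative contrasts. Of 34 genes 33 had a negative contrast (7072 of the 14030 tested genes did), and 6 passed (17.6%), all with a negative contrast (background 2.73%), 3 reversing and 3 appearing. The median effect was 0.16 at 7 months and -0.72 at 10 months, and 14 of the 34 were lower in transgenic mice at an adjusted p below 0.05 at 10 months (background 2.99%) against 0 at 7 months. The interferon-stimulated response element, searched on both strands as TTTC, 2 bases of any kind and TTTC, stood in the 250 bases before the start of 12 of the 23 listed genes that matched the promoter table (52.2%) and of 936 of its 27025 genes (3.46%). Of the 12, 3 were called in the contrast, as were 31 of the 346 tested genes that held it. Ifit1 and Isg15 are shown as the holders of the element with the smallest contrast p, with all matches in capitals.
Ifit1, chr19:34640639-34640888, plus strand: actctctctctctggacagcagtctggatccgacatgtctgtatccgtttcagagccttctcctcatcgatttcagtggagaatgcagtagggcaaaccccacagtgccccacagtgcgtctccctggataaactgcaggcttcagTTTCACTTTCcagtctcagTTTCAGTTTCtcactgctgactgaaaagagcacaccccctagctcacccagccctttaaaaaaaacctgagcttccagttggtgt
Isg15, chr4:156200819-156201068, minus strand: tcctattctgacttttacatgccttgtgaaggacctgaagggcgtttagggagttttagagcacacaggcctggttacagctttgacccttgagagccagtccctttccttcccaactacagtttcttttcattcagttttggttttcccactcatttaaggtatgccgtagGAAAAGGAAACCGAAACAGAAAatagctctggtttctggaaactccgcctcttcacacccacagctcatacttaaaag
Ifit1, which binds foreign RNA, had 367 to 677 (median 524) against 415, 280, 392 and 333 at 7 months and 598, 615, 367, 240 and 270 against 778, 678, 573, 527 and 836 at 10 months, with overlap at both ages (contrast -1.35 ± 0.33, adjusted p = 0.0184). Isg15, a ubiquitin-like modifier, had a contrast of -1.26 ± 0.33 (adjusted p = 0.0234) and Irf9, a subunit of the factor that binds the element, one of -0.48 ± 0.12 (adjusted p = 0.0168). Transgenic replicates 1 and 2 of 10 months had higher Ifit1 than the other 3, and the list had 14 and 12 called genes without them. Without wild-type replicate 2 of 7 months or wild-type replicate 1 of 10 months it had 3. At 10 months the monocyte marker sums (23651 to 41157 against 44735 to 80913) and the border macrophage marker sums (41773 to 50549 against 54523 to 68386) were lower in transgenic mice with no overlap, and the neutrophil marker sums given above overlapped. The part of these cells in the pattern was not tested.

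Genes of the lysosome, where microglia degrade what they take up, differed mainly at 7 months. Of 45 genes 26 were higher in transgenic mice at an unadjusted p below 0.05 at 7 months (background 11.7%) and 4 at 10 months (background 11.8%), with medians of 0.20 and -0.02. In the contrast 4 passed (8.89%, background 6.6%), all negative (background 2.73%): the cathepsin gene Ctsc (-0.78 ± 0.14, adjusted p = 0.00265), the acid lipase gene Lipa (-0.44 ± 0.11, adjusted p = 0.015), the iduronidase gene Idua (-0.82 ± 0.20, adjusted p = 0.0196) and the proton pump gene Atp6v1b2 (-0.37 ± 0.10, adjusted p = 0.0329). The call of Atp6v1b2 was lost in 6 of the 20 fits without 1 mouse (highest adjusted p = 0.0791, without wild-type replicate 2 of 7 months), and without transgenic replicate 4 of 7 months 11 lysosomal genes passed. Of the 24 genes of the disease-associated microglial state, 19 had a negative contrast and 1 passed, Apoe (-0.69 ± 0.19, adjusted p = 0.0297), whose call was lost without wild-type replicate 1 or 2 of 7 months or transgenic replicate 1 or 5 of 10 months (highest adjusted p = 0.0641).

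Metabolic genes gave smaller groups. Of 29 genes of glycolysis and the hypoxia response 7 passed (24.1%, background 6.6%), and 4 without transgenic replicate 3 of 10 months. The 2 phosphofructokinase genes went opposite ways: Pfkm, the muscle-type isoform, had a contrast of 0.65 ± 0.12 (adjusted p = 0.00254) and Pfkl, the liver-type isoform, one of -0.57 ± 0.13 (adjusted p = 0.00951), and the sign of each was the same in every alternative run, other scalings included. Slc16a3, the lactate exporter, appeared (-0.78 ± 0.20, adjusted p = 0.0188). The stearoyl-CoA desaturase gene Scd1 had 162 to 362 (median 305) against 457, 357, 282 and 459 at 7 months, and 517, 417, 533, 568 and 567 against 214, 274, 394, 199 and 324 at 10 months (contrast 1.41 ± 0.29, adjusted p = 0.00678). Its groups overlapped at 7 months and separated at 10 months, and Scd2 appeared with the same sign (0.76 ± 0.18, adjusted p = 0.0157). Plin2, which coats lipid droplets, appeared with a negative contrast (-0.64 ± 0.15, adjusted p = 0.0141).

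Of 25 genes tied to Parkinson's disease and mitophagy 4 passed (16%, background 6.6%). Park2, which encodes the ubiquitin ligase parkin, had 126 to 207 (median 167) in transgenic mice of 7 months against 440, 435, 296 and 526 in wild-type mice, with no overlap. Its values at 10 months were 428, 218, 356, 263 and 195 against 178, 149, 252, 203 and 335, with overlap (contrast 1.70 ± 0.32, adjusted p = 0.00343). Pink1, the kinase that activates parkin, reversed with a smaller change (0.71 ± 0.15, adjusted p = 0.00744), as did Gigyf2, a translational repressor (0.52 ± 0.10, adjusted p = 0.00431). Rab32, a small GTPase, had a contrast of -0.44 ± 0.13 (adjusted p = 0.0467) that was lost in 14 of the 20 fits without 1 mouse (highest adjusted p = 0.0929, without wild-type replicate 4 of 7 months).

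Of the appearing genes with a mean of at least 50 in a group, Kcnj14 and Nxpe4 had the largest contrasts. Nxpe4 had 45.9 to 219 (median 95.6) against 28.8, 193, 162 and 245 at 7 months. The 10-month values were 141, 175, 172, 280 and 148 against 10.6, 14.1, 6.6, 10.8 and 16.6. The genotypes overlapped fully at 7 months, and at 10 months the 5 wild-type mice stood below every transgenic mouse (contrast 4.14 ± 0.65, adjusted p = 0.001). Kcnj14, an inward-rectifier potassium channel, had a contrast of 4.92 ± 1.28 (adjusted p = 0.0263) that was lost without wild-type replicate 1, 2 or 3 of 7 months or wild-type replicate 1 of 10 months (highest adjusted p = 0.0571) and by limma-voom with quality weights (adjusted p = 0.141). Its transgenic mice had 8.12 to 103 at 7 months against 94.4, 127, 137 and 8.51. At 10 months they had 89.9, 153, 212, 16.6 and 30.1 against 0, 5.63, 4.71, 2.69 and 4.15. The transgenic mice of both ages and the wild-type mice of 7 months were thus widely spread around their means. The tetraspanin gene Tspan8 (2.32 ± 0.47, adjusted p = 0.0053) and the noncoding 9330159M07Rik (2.49 ± 0.46, adjusted p = 0.00312) also appeared as higher in transgenic mice of 10 months. Saa3 (-3.23 ± 0.95, adjusted p = 0.0419) and Zdhhc2 (2.96 ± 0.86, adjusted p = 0.0481) were less stable, with calls lost in 12 and 15 of the 20 fits without 1 mouse. Cd209a, a C-type lectin of border macrophages and dendritic cells, appeared with the opposite sign. It had 1818 to 2269 (median 2004) against 2807, 2030, 1853 and 2536 at 7 months, and 1128, 1041, 883, 1179 and 1120 against 2413, 1798, 1794, 1911 and 1727 at 10 months (contrast -0.67 ± 0.16, adjusted p = 0.0127). All transgenic mice lay below all wild-type mice at 10 months, and the genotypes overlapped at 7 months. Of 15 border macrophage markers 2 passed, both with a negative contrast (13.3%, background 2.73%), and their sums at 10 months were 41773 to 50549 in transgenic and 54523 to 68386 in wild-type mice.

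Only 6 called genes had an effect at an unadjusted p below 0.05 at both ages in the same direction. Their count was 2 to 3 without any 1 of 7 mice (transgenic replicate 2 and wild-type replicates 1, 2 and 3 of 7 months, transgenic replicates 4 and 5 and wild-type replicate 1 of 10 months). Thy1, whose promoter drives the transgene, had 392 to 1298 (median 877) in transgenic mice of 7 months against 47.6, 44.7, 17.7 and 46.8 in wild-type mice. In the older mice it had 1117, 1463, 1741, 1197 and 1595 against 15.9, 32.4, 13.2, 9.41 and 15.9. The genotypes were far apart at both ages, with an effect of 4.51 ± 0.33 and then 6.37 ± 0.33 (contrast 1.86 ± 0.47, adjusted p = 0.0205, 0.0507 without wild-type replicate 1 of 7 months and 0.31 by limma-voom with quality weights on the recovered reads). Whether the reads counted on Thy1 came from the mouse gene or from the transgene was not tested. Gclc, the catalytic subunit of glutathione synthesis, had effects of 0.16 and 0.51 (contrast 0.35 ± 0.09, adjusted p = 0.0213). Among the 3 of these genes with a smaller effect at 10 months, Vcam1, an adhesion molecule, had the largest loss. It had 3407 to 6675 (median 4938) against 1822, 1588, 1221 and 1718 at 7 months, and 3128, 4023, 3536, 3059 and 4417 against 2367, 2916, 2555, 2453 and 3088 at 10 months (contrast -1.21 ± 0.24, adjusted p = 0.00695). The groups were clear of each other at 7 months and overlapped at 10 months. The predicted gene Gm15880, St8sia6 and Atp2c1 (contrasts 2.46, -0.70 and -0.53) each lost their call in 16, 16 and 11 of the 20 fits without 1 mouse.

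Clec10a and Trpm6 were named in the study and are given for that reason. Clec10a, a lectin of macrophages and dendritic cells, had 618 to 1635 (median 1334) against 715, 890, 657 and 711 at 7 months, and 898, 816, 727, 609 and 414 against 1081, 864, 948, 878 and 1020 at 10 months. It overlapped at both ages and reversed (contrast -1.22 ± 0.32, adjusted p = 0.0262), a call lost without wild-type replicate 1 or 3 of 7 months or wild-type replicate 1 of 10 months (highest adjusted p = 0.0561). Trpm6, a magnesium channel, had 8.96 to 102 (median 38.3) against 0, 0, 0 and 11.7 at 7 months, and 56.9, 75.8, 123, 127 and 69.2 against 26.5, 12.7, 49, 52.4 and 50.5 at 10 months, where the genotypes did not overlap. Its wild-type mice were at 0 in 3 of 4 libraries at 7 months, so the fitted effect at that age depends on the added constant, and the contrast of -3.06 ± 0.93 (adjusted p = 0.0493) was lost in 17 of the 20 fits without 1 mouse (highest adjusted p = 0.11, without wild-type replicate 1 of 7 months).

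Because the contrast equals the change from 7 to 10 months in transgenic mice minus that in wild-type mice, each called gene was also described by which genotype changed with age. For this, reads were scaled over all 20 mice together, a comparison added after the data were seen. Of the 926 genes, 810 (87.5%) changed more in wild-type than in transgenic mice, against 62.5% of all tested genes. On the deposited scale, set within each age, the share was 78.4% against 55.9%, and it differed by direction, with 96.7% of the positive and 52.5% of the negative contrasts. Scaled together, these shares were 88% and 86.7%. Between 10 and 7 months 1454 genes differed in wild-type mice (10.4%) and 132 in transgenic mice (0.941%) at an adjusted p below 0.05. Of the 926 genes, 683 differed with age only in wild-type mice, 17 only in transgenic mice, 5 in both and 221 in neither. Both comparisons share their libraries with the contrast, so these counts describe it and do not support it, and on the deposited scale 2198 and 853 genes differed. The 18 ER chaperone genes had a median change with age of 0.59 in wild-type and -0.09 in transgenic mice. Ribosomal protein genes had medians of -0.31 and 0.25. Cirbp fell by 1.80 in wild-type mice and had a change of 0.57 in transgenic mice. Ccr6 was the opposite case, with a change of 4.83 in transgenic and -0.75 in wild-type mice.

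**Figure D5:**
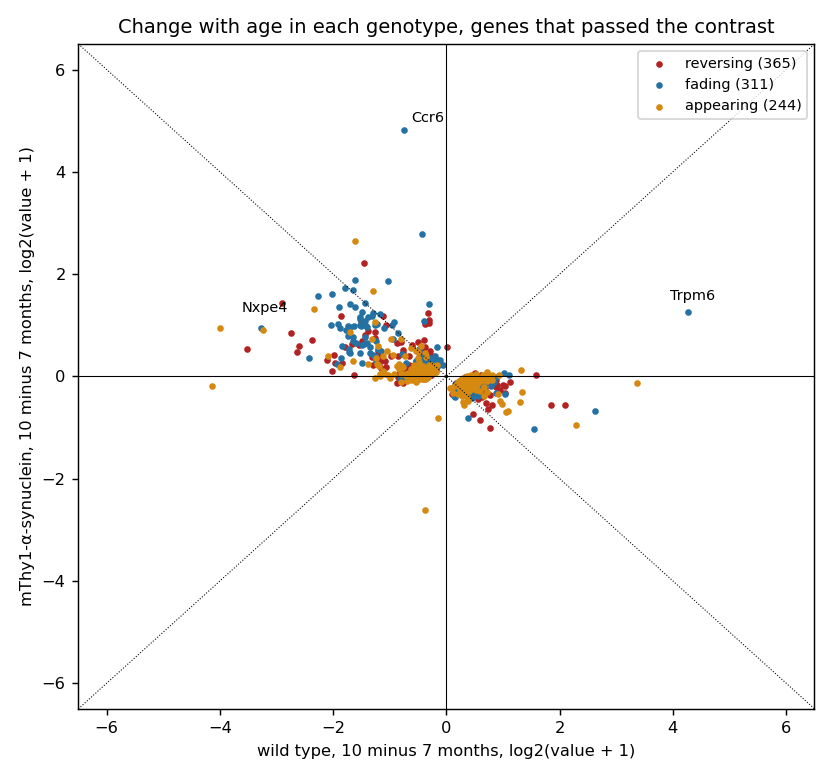
Change from 7 to 10 months in wild-type mice (horizontal axis) against that in mThy1-α-synuclein mice (vertical axis), log2(value + 1) with reads scaled over all 20 mice, for the reversing, fading and appearing genes. Dotted lines mark equal sizes of change, and most points lie nearer the horizontal axis, as 810 of the 926 called genes changed more in wild-type mice, and Ccr6 lies near the vertical axis.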

How the data were processed

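Polyadenylated RNA from microglia of single brains was sequenced by the study in 1 run. Reads were trimmed with Trim Galore 0.6.7, aligned to mm10 (GRCm38) with HISAT2 2.2.1 and assigned to genes with featureCounts. The annotation release and the strand setting are not given in the sources used here. The authors deposited a signal, gene counts divided by DESeq2 size factors that were computed within each age. Dividing by the value of 1 read gave whole reads, within 0.01 reads, for 100% of positive values, and edgeR's quasi-likelihood test on those reads called 954 genes.

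Group membership came from the titles. limma 3.58.1 (R 4.3.3, trend and robust) was fitted to log2(value + 1) over 4 groups, with Benjamini-Hochberg adjustment over 14030 genes and a cutoff of 0.05; fold changes on this scale understate changes of low genes. Because scaling was done within each age, levels were compared between ages after scaling all 20 mice together. Results on the deposited scale are given beside these where named. The fit was tested on simulated data.

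Members and gene lists were chosen with earlier results of these data known. Named genes were the 6 largest contrasts per class among genes with a mean of at least 50 in a group, the 6 smallest contrast p, Ccr6, Clec10a, Trpm6 and Thy1, and up to 4 called genes per list, or the nearest gene where none was called. Rbm3, the ER genes Hspa5, Sdf2l1, Manf, Hyou1, Xbp1 and Syvn1, Hsph1, the translation factors, Tlr4, Tlr7, Tlr9 and Ifit3 were added after their values were seen, and single list members are given for contrast. Some genes that this rule names are not reported here. Positions came from GENCODE for 13920 genes (99.2%) and promoters from RefSeq (GRCm38.p6). The alternatives were other pseudocounts (0.5 and 5), filters, a joint scaling, edgeR 4.0.16, DESeq2 1.42.0, limma-voom with quality weights, limma without trend, a replicate block and leaving out each mouse. Replicates are separate mice; no 2 libraries of a group agreed within sampling noise.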

Additional observations from a re-analysis of the deposited data

Results flagged for a closer look

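In 20 of 476 groups of values of the named genes (4.2%), 1 mouse stood far from the others of its group by Dixon's test, and chance alone gives about 1 in 20 such groups. In transgenic replicate 1 of 7 months these were values of 3.36 for Dnm1, 1760 for Cd80 and 430 for Mcm2. In wild-type replicate 3 of 7 months these were values of 4699 for Ccr6, 17.7 for Thy1 and 4724 for Tlr4. In wild-type replicate 4 of 7 months these were values of 11.7 for Trpm6, 8.51 for Kcnj14, 2759 for C5ar1 and 4242 for Stip1. In wild-type replicate 3 of 10 months these were values of 3566 for Atp6v1d, 3688 for Casp1 and 9245 for Lipa. In transgenic replicate 2 of 10 months this was a value of 117304 for Hsp90b1. In transgenic replicate 5 of 7 months this was a value of 6496 for Stip1. In wild-type replicate 1 of 10 months these were values of 8996 for Stip1, 13456 for Pdia4 and 9692 for Manf. In wild-type replicate 2 of 7 months this was a value of 7037 for Atp6v1b2. In transgenic replicate 3 of 7 months this was a value of 10975 for Rbm3.

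The genotype effect differed between 7 and 10 months for 926 genes by limma (adjusted p below 0.05), and 109 of them are named here with their contrast on the log2(value + 1) scale. Reversing genes with a positive contrast were Dnm1 (3.07), Ndrg4 (2.58), Acsl6 (2.42), Tbx19 (2.40), Cirbp (2.36), Nrxn2 (2.30), Zeb1 (1.38), Rpl3 (0.68), Ndrg2 (1.23), Scd1 (1.41), Lss (0.74), Pfkm (0.65), Wipi1 (0.77) and Gigyf2 (0.52). Further ones were Pink1 (0.71), Rbm3 (2.22), Eef2 (0.55) and Eif4b (0.57). Reversing genes with a negative contrast were Pdia6 (-0.96), P4ha1 (-1.21), Creld2 (-1.18), Clec10a (-1.22), Hsp90b1 (-0.77), Ly96 (-0.92), Tlr6 (-0.80), Casp1 (-0.39), Tnfrsf1b (-0.37), Ccr1 (-1.45), Ifit1 (-1.35), Pdia3 (-0.58), Stip1 (-1.14) and Fkbp4 (-0.81). Further ones were Pdia4 (-0.81), Dusp6 (-1.24), Pfkl (-0.57), Ctsc (-0.78), Lipa (-0.44), Atp6v1b2 (-0.37), Fcgr1 (-0.54), Hspa5 (-1.09), Hyou1 (-0.83), Ifit3 (-1.0) and Syvn1 (-0.56). Fading genes with a positive contrast were Ccr6 (5.57), Frrs1l (4.21), Gpr37l1 (3.26), Bcan (3.12), Rps12 (0.73), Rpl6 (0.57), Rpl17 (0.74), Mrpl23 (0.53), Atp5g2 (0.57), Irak1 (0.31), Nrgn (2.33), Nefm (2.25), Syt1 (2.65) and Nefl (2.17). Further ones were Sox9 (2.09), Gja1 (2.35), Aldoc (1.53), Park2 (1.70) and Eef1a1 (0.56). Fading genes with a negative contrast were Trpm6 (-3.06), Tlr2 (-0.64), Cxcl10 (-1.38), C3ar1 (-0.64), Apoe (-0.69), Myc (-0.96), Idua (-0.82), Rab32 (-0.44), Lyn (-0.41), Tlr4 (-0.56) and Tlr7 (-0.59). Appearing genes with a positive contrast were Kcnj14 (4.92), Nxpe4 (4.14), Zdhhc2 (2.96), 9330159M07Rik (2.49), Tspan8 (2.32), Nek7 (0.37) and Scd2 (0.76). Appearing genes with a negative contrast were Saa3 (-3.23), Tnfrsf1a (-0.40), Ccl7 (-1.74), Irf9 (-0.48), Isg15 (-1.26), Usp18 (-1.44), Calr (-0.61), Cd80 (-0.45), C5ar1 (-0.90), Cd209a (-0.67), Csf3r (-0.48), Slc2a1 (-0.63), Hspa8 (-0.76) and Ahsa1 (-0.50). Further ones were Plin2 (-0.64), Ebp (-0.42), Slc16a3 (-0.78), Atg7 (-0.33), Syk (-0.37), Sdf2l1 (-0.78), Manf (-0.70), Xbp1 (-0.61) and Hsph1 (-1.53). Genes with the same direction and a larger effect at 10 months were Gm15880 (2.46), Thy1 (1.86) and Gclc (0.35). Genes with the same direction and a smaller effect at 10 months were Vcam1 (-1.21), St8sia6 (-0.70) and Atp2c1 (-0.53).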

How the results depend on the processing

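With pseudocounts of 0.5 and 5, other filters, a joint scaling, edgeR, DESeq2, voom with quality weights and limma without trend, the contrast called 805 (no trend) to 1334 (DESeq2) genes against 926, of which edgeR, with 954, shared 893. All 926 kept their sign in each of these settings that tested them. DESeq2 called 508 fading, 411 appearing and 12 same-direction genes, and the cause was not tested. Without 1 mouse in turn, the calls ranged from 623 (without wild-type replicate 1 of 10 months) to 1089 (without transgenic replicate 4 of 7 months), the reversing genes from 268 to 421, the fading from 189 to 410, the appearing from 138 to 263 and the same-direction genes from 2 to 8. Positive contrasts made up 56.1% to 61.3% of the calls over all these settings. Dnm1 and Trpm6, both of low value, lost their call in 17 of the 20 fits without 1 mouse. Of 109 named genes called, 76 were called without any 1 mouse and 33 lost their call without at least 1, and 21 lost it in a setting other than leaving out a mouse or the block.

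Replicate numbers did not pair the mice: deviations of same-numbered mice within an age correlated at -0.137 to 0.0797 over 9 pairs, and 1 of 9 correlated best with its own number. With the replicate number as a block, 481 genes passed, 430 of them shared, with 221 reversing, 164 fading and 92 appearing, and 41 of the 109 named genes lost their call.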

Other observations

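Of 33 autophagy genes 2 passed, of 25 genes of cholesterol synthesis and uptake 2 passed, and of 32 immediate-early genes 2 passed, shares near the 6.6% of all tested genes. None of 28 cell division genes passed by limma, edgeR or DESeq2, and none had an unadjusted p below 0.05. Of 16 genes of the DNA methylation machinery none passed by limma, edgeR or DESeq2, with 3 at an unadjusted p below 0.05. In MHC class I presentation 2 of 17 genes passed (11.8%), in MHC class II presentation 1 of 14 (7.14%) and among complement genes 2 of 20 (10%). All had a negative contrast (background 2.73%). The class I genes were Calr, counted above with the ER chaperones, and Pdia3, and the class II gene was Cd80. No gene for an MHC molecule itself was among them. The complement genes were the receptor genes C3ar1 and C5ar1. Cd80, C3ar1 and C5ar1 lost their calls in 14, 10 and 9 of the 20 fits without 1 mouse. Lymphocyte marker sums were 1792 to 2481 in transgenic and 3321 to 4632 in wild-type mice of 7 months, and 1408 to 1939 against 2258 to 3985 at 10 months, with no overlap at either age and no lymphocyte gene called in the contrast by limma, edgeR or DESeq2 or at an unadjusted p below 0.05. Monocyte marker sums did not overlap at 10 months (23651 to 41157 in transgenic and 44735 to 80913 in wild-type mice). Of the chromosomes with called genes, 9 had the highest share, with 73 of 762 tested genes (9.58%).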
